A study of Mus musculus with 6 samples.

Results

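Infiltrating myeloid cells are monocytes and the macrophages that derive from them, and they enter the brain from the blood. Here they were cells whose transcripts of Ms4a7, Ly6c2, Plac8 and Ccr2 came to at least 3 UMIs, that is distinct molecules, with at most 1 UMI of the microglial genes P2ry12, Tmem119, Siglech and Gpr34 together and at most 1 of Nkg7, Flt3 and Ccr7 together. The cells under hashtags 5 and 6 are set against those under hashtags 3 and 4. The series held 22145 cells with a hashtag of any number, and 7128 infiltrating cells lay under hashtags 3 to 6. Hashtags 5 and 6 marked 3898 of them, among 8304 cells of any kind, and hashtags 3 and 4 marked 3230, among 8771.

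The cells were CD11b+ cells of the brains of C57BL/6 mice aged 12 weeks, profiled by CITE-seq, which reads the transcripts of a cell together with antibodies that carry DNA barcodes. There were 3 pools of 6 hashed samples each, and per the labels a pool held female and male samples with a tumor at day 14 or 21 and control samples without one, under a series title on glioma. All animals were perfused with cold saline before the brain, or for tumor samples the tumor-bearing hemisphere, was dissociated with enzymes. The sources used here name the hashtags only by number, so no sex, tumor status or time point is assigned to any of them. A side of the comparison has 6 hashed samples, 2 in each pool. Nothing says which animals the samples came from, so the p-values measure the spread between these samples, which may be partly technical.

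Ly6C-high monocytes reach inflamed or tumor-bearing brain through the chemokine receptor CCR2 and lose Ly6c2 and Plac8 as they take on macrophage genes such as Ms4a7, C1qb and Apoe. Microglia are the resident macrophages of the brain, seeded before birth, and are set apart by P2ry12, Tmem119 and Sall1. Type I interferons act through their receptor to switch on a shared set of antiviral genes. Interferon gamma drives class II antigen presentation and the chemokine Cxcl9.

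Pool 3 stood apart from the others. Of its barcodes 16.0% kept a hashtag, against 78.3% in pool 1 and 84.9% in pool 2, and it gave 514 infiltrating cells under hashtags 3 to 6, against 3620 and 2994. Its hashtag 3 sample held only 23 of them, with 194499 UMIs, while the other 11 sums held more. The mRNA libraries held 74848339, 107880924 and 71510276 UMIs. The pools shared 32, 50 and 53 cell barcodes pair by pair. Barcodes with a top hashtag under 80% of hashtag UMIs were left out, and no doublet caller was run. Median depth of the infiltrating cells was 6477 to 12245 UMIs per cell under hashtags 5 and 6 and 6608 to 12115 under hashtags 3 and 4.

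The sequences shown here are promoters of 3 genes of the type I interferon response, the list whose members lay furthest to one side in the comparison reported further on. They run from 250 bases before to 50 bases after the gene start, 5′ to 3′ on the gene's strand, from RefSeq on GRCm38.p6. Capitals mark GAAANNGAAA on either strand, the core of the interferon-stimulated response element, or its reverse complement TTTCNNTTTC, with overlapping matches joined. Isg15, a ubiquitin-like protein, lies at chr4:156200769-156201068 on the minus strand. Ifit3, which binds other IFIT proteins, lies at chr19:34583279-34583578 on the plus strand. Rsad2, the antiviral enzyme viperin, lies at chr12:26456403-26456702 on the minus strand.
Isg15: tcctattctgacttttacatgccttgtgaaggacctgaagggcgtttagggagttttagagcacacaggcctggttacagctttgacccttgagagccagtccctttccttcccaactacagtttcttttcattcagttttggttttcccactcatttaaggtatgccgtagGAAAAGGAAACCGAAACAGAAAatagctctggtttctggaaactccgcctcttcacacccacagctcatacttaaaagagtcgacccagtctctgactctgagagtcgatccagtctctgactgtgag
Ifit3: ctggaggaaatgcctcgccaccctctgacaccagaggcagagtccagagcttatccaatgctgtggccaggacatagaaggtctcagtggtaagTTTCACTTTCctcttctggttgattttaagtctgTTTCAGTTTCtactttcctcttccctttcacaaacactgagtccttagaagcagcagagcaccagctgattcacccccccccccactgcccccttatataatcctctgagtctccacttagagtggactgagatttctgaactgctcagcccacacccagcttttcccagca
Rsad2: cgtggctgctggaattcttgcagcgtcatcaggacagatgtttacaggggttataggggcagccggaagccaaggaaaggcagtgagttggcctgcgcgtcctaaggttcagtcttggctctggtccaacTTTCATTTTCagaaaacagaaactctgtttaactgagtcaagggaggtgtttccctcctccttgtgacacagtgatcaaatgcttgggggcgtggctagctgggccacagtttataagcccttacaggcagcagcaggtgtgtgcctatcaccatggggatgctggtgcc
The motif occurred in 1131 of 32851 promoter windows of this length (3.44%), that is in 3.99% of 27025 genes, and in 15 of the 28 genes of the list that were matched to a window. It is a match of letters only.

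The marker check went with the label. Sall1, a transcription factor of microglia that the gate did not use, had 0 to 3.69 CPM in the 12 sums of infiltrating cells, against 131 to 269 CPM in the microglia of the same samples. Sparc, a matrix protein of microglia, had 7.29 to 21.1 CPM in infiltrating cells and 1744 to 2947 CPM in microglia. The 10 microglial markers together came to 433, 650 and 753 CPM (lowest, median and highest) under hashtags 5 and 6 and to 430, 541 and 992 CPM under hashtags 3 and 4, so the groups overlapped. The surface tags were read as centred log ratios, which set each tag against the others. On that scale the CD11b tag was lower in infiltrating cells than in microglia in 12 of 12 samples, and the Ly6C tag was higher in 12 of 12. The gate used Ly6c2 transcripts, so the Ly6C tag is not a separate check of the label.

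Markers of other cell types were low, apart from those of neutrophils. The 6 T cell markers came to at most 6.44 CPM under hashtags 5 and 6 and at most 12.2 CPM under hashtags 3 and 4. Of these markers Cd8a was at 0 in 10 of 12 sums and Trac in 1 of 12. The 7 neutrophil markers came to 66.5, 445 and 1559 CPM under hashtags 5 and 6 and to 87.4, 1429 and 3175 CPM under hashtags 3 and 4, and S100a8 and S100a9 made up most of the sum where it was high. Ly6g, the defining surface gene of neutrophils, was at 0 in 5 of 12 sums and reached 4.35 CPM under hashtags 5 and 6 and 8.37 CPM under hashtags 3 and 4. Retnlg, another of the 7, was at 0 in 2 of 12 sums. It reached 36.3 CPM under hashtags 5 and 6 and 81.9 CPM under hashtags 3 and 4. The part of these cells in the differences reported here was not tested, and values without cells that carried such markers are given beside the interferon genes and S100a8.

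Infiltrating cells made up more of the cells under hashtags 5 and 6 than under hashtags 3 and 4 in pools 1, 2 and 3. Since the gate chose these cells on transcripts, the shares are a description with no test. In pool 1 the shares were 56.8% and 43.5% under hashtags 5 and 6, against 34.7% and 39.8% under hashtags 3 and 4. In pool 2 they were 43.8% and 43.1% under hashtags 5 and 6, against 38.4% and 40.8% under hashtags 3 and 4. In pool 3 they were 34.9% and 53.2% under hashtags 5 and 6, against 6.78% and 29.3% under hashtags 3 and 4. Within each pool both samples of hashtags 5 and 6 lay above both of hashtags 3 and 4, and across pools the groups overlapped. Exact binomial 95% intervals cover counting error only. That of pool 1 hashtag 5 ran from 54.6% to 59.0%, and that of pool 3 hashtag 3 from 4.35% to 10.0%.

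**Figure D1:**
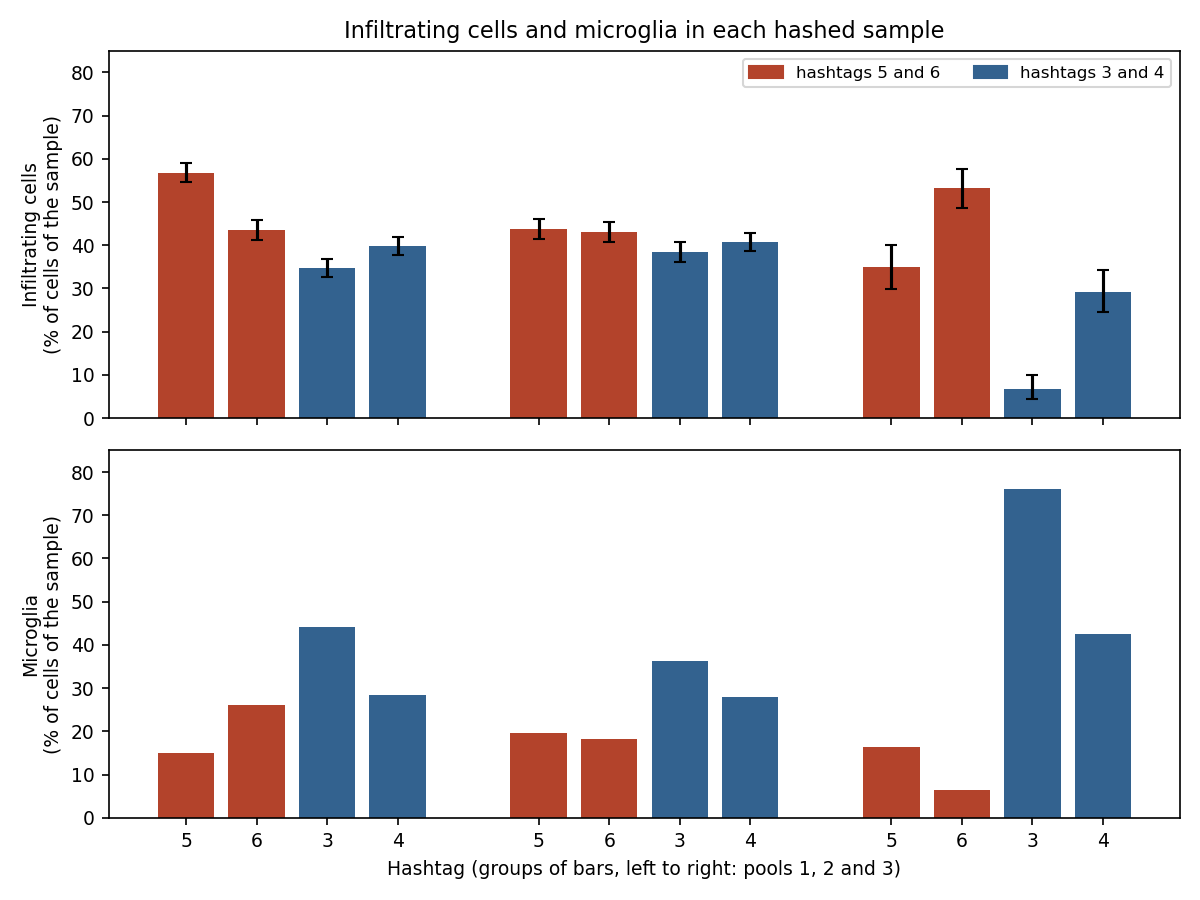
Infiltrating cells (upper panel) and microglia (lower panel) as a percent of the cells with that hashtag, for hashtags 5, 6, 3 and 4 in pools 1, 2 and 3, with exact binomial 95% intervals in the upper panel. In each pool both bars of hashtags 5 and 6 are above both bars of hashtags 3 and 4 for infiltrating cells and below them for microglia, and pool 3 hashtag 3 stands out with 6.78% infiltrating cells and 76.1% microglia.

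Microglia ran the other way. They were 6.55% to 26.1% of cells under hashtags 5 and 6 (median 17.3%) and 27.9% to 76.1% under hashtags 3 and 4 (median 39.5%), so here the groups did not overlap. Shares of 1 sample add up to 100 at most, so the higher share of infiltrating cells and the lower share of microglia are not separate measurements. Numbers of cells per brain were not measured.

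The gate held cells that leaned to monocytes, with more UMIs of Ly6c2 and Plac8 than of Ms4a7, and cells that leaned to macrophages, with the reverse. Monocyte-leaning cells were 55.0%, 69.5% and 91.9% (lowest, median and highest) under hashtags 5 and 6 and 48.8%, 84.7% and 96.0% under hashtags 3 and 4. The ranges overlapped almost wholly. In pools 1 and 2 hashtags 5 and 3 had the higher shares, 86.3% to 95.3%, and hashtags 6 and 4 the lower ones, 48.8% to 74.6%, so samples within a side differed more than the sides. Pool 3 did not follow this, with 68.9% and 70.1% under hashtags 5 and 6, against 69.6% and 96.0% under hashtags 3 and 4.

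The genes that selected the cells carry no test, and not all of them followed that balance. Ly6c2, a monocyte surface protein, had 688, 1417 and 2975 CPM under hashtags 5 and 6 and 678, 1844 and 4452 CPM under hashtags 3 and 4. Ms4a7, a membrane protein of macrophages, had 269, 544 and 787 CPM under hashtags 5 and 6 and 300, 522 and 796 CPM under hashtags 3 and 4. In pool 3 Ms4a7 had 505 CPM under hashtag 4 and 488 CPM under hashtag 5, though 96.0% and 68.9% of those cells leaned to monocytes. Both genes spread several-fold within a side, and neither separated the sides. Plac8 had a median of 1992 CPM under hashtags 5 and 6 and 2757 CPM under hashtags 3 and 4. Ccr2 varied least, from 188 to 336 CPM under hashtags 5 and 6 and from 197 to 341 CPM under hashtags 3 and 4. The genes that kept cells out were near 0 by construction, P2ry12 for instance at a median of 13.1 CPM under hashtags 5 and 6 and 11.7 CPM under hashtags 3 and 4. Cells with exactly 3 UMIs of the 4 genes numbered 90 under hashtags 5 and 6 and 45 under hashtags 3 and 4, and cells with exactly 2, just outside, numbered 91 under hashtags 5 and 6 and 52 under hashtags 3 and 4. At the limit on microglial genes, cells with exactly 1 such UMI numbered 1121 under hashtags 5 and 6 and 885 under hashtags 3 and 4, and cells with exactly 2, just outside, numbered 414 under hashtags 5 and 6 and 263 under hashtags 3 and 4.

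Xist, the RNA that silences an X chromosome, split the samples within each side. It had 326, 521 and 452 CPM under hashtag 5 in pools 1, 2 and 3, against 324, 472 and 442 CPM under hashtag 3. It had 4.87, 2.12 and 3.63 CPM under hashtag 6, against 1.97, 5.24 and 9.85 CPM under hashtag 4. The Y-linked gene Ddx3y ran the other way, with at most 1.09 CPM under hashtag 5 and 0.73 CPM under hashtag 3, and at least 68.9 CPM under hashtag 6 and 62.8 CPM under hashtag 4. Eif2s3y, Kdm5d and Uty had the same order. Each side therefore held 1 sample of either kind in every pool, and the hashtags are still known by number alone.

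**Figure D2:**
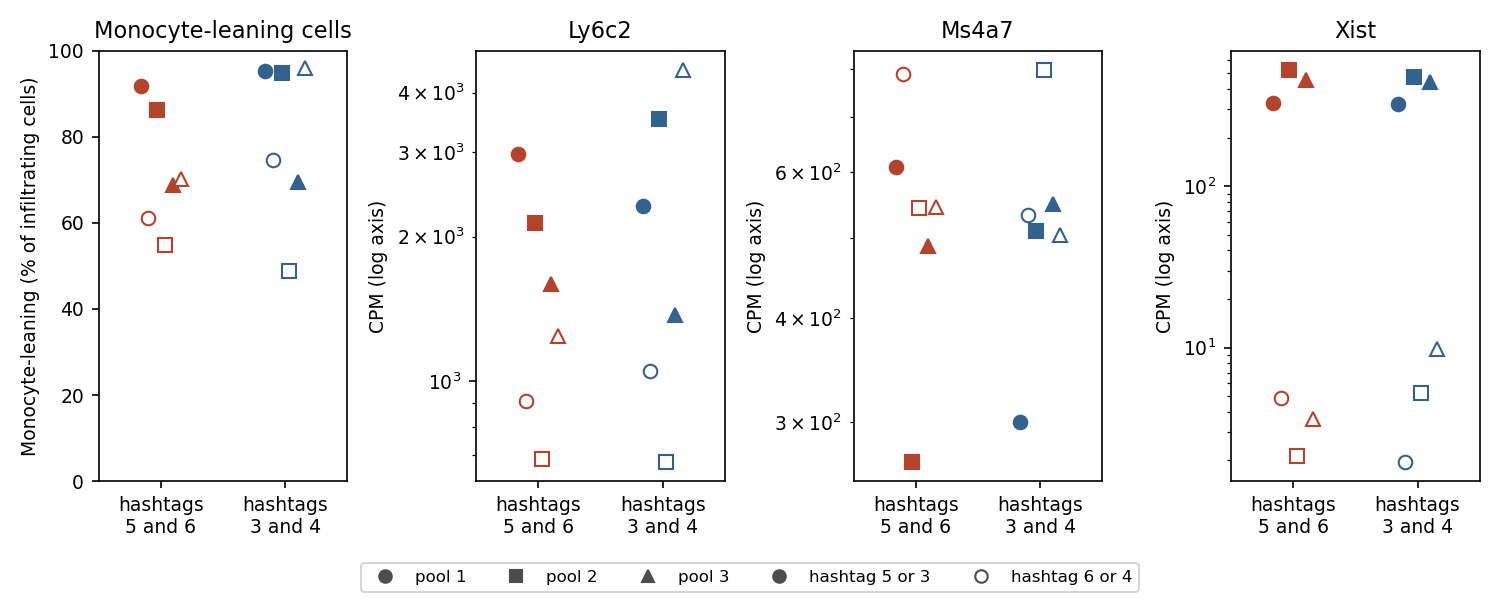
Monocyte-leaning cells as a percent of infiltrating cells, and the levels of Ly6c2, Ms4a7 and Xist in CPM on log axes, for the 6 hashed samples of hashtags 5 and 6 (left in each panel) and of hashtags 3 and 4 (right). Shapes mark pools, filled symbols hashtags 5 and 3 and open symbols hashtags 6 and 4: Xist separates filled from open symbols, while the sides overlap in all 4 panels.

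Transcript counts were then summed per hashed sample over the infiltrating cells and compared across all genes, with pool as a block. No gene passed the test between hashtags 5 and 6 and hashtags 3 and 4. By edgeR's quasi-likelihood test 0 of 9895 genes (0.0%) had a Benjamini-Hochberg adjusted p under 0.05, and 328 genes (3.31%) had an unadjusted p under 0.05. Of these 187 were higher (1.89%) and 141 lower (1.42%) under hashtags 5 and 6. DESeq2 gave 0 and 344. A missed threshold does not show that the sides are alike: the median standard error of a log2 fold change was 0.16.

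Single samples of a side differed from each other as well. These gaps are between single samples, and those between sides are between means of 2 samples, which are smaller by construction. In pool 1 the median gene differed by 0.22 on the log2(CPM + 1) scale between hashtags 5 and 6, by 0.21 between hashtags 3 and 4, and by 0.12 between the means of the sides. In pool 2 these values were 0.20, 0.26 and 0.14. In pool 3 they were 0.26, 0.59 and 0.41, the highest of them resting on the 23 cells of hashtag 3. Over all pools the sides differed by 0.15 in the median gene. The estimated fold change was past 2 in either direction for 41 genes. The sign of the difference was the same in each pool for 1686 higher and 1170 lower genes of 9895.

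For 8 genes (0.0808%) the 6 samples of one side did not overlap the 6 of the other. They were singled out after their values were seen. A random split of 12 samples into sides of 6 separates a gene with a probability of 0.00216, which is above that share. Asxl1, a chromatin regulator, had 10.4, 13.8 and 15.2 CPM under hashtags 5 and 6 and 4.70, 9.26 and 9.85 CPM under hashtags 3 and 4. Mynn, a zinc finger protein, had 5.44, 7.15 and 7.94 CPM under hashtags 5 and 6 and 8.95, 10.8 and 14.1 CPM under hashtags 3 and 4. Chml, Fam8a1 and Fxr2 were higher as well under hashtags 5 and 6, and Hsdl2, Slc25a38 and Dapk3 lower. Their log2 fold changes ran from -0.53 to 0.89, and edgeR's adjusted p was 1.0 for each. Pool 3 hashtag 3, with 23 cells and 194499 UMIs, gave the lowest values of Asxl1, Chml and Fam8a1 and the highest of Mynn. At that depth such levels rest on a few molecules at most.

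Ckb, Mmp13 and Znrd1 had the smallest unadjusted p and were also chosen after seeing the values. Mmp13, a collagenase, had 0.99, 9.63 and 17.8 CPM under hashtags 5 and 6 and 0.42, 3.14 and 5.24 CPM under hashtags 3 and 4. Pool 1 hashtag 5 was the 1 sample of its side that fell among those of hashtags 3 and 4. Its estimated fold was 2.83 (95% interval 1.53 to 5.21), above 1 in 3 of 3 pools, with an adjusted p of 1.0 by edgeR. With hashtags 5 and 3 and hashtags 6 and 4 paired within pools, a setting added after seeing the data, it had the smallest adjusted p of all genes, 0.118. Ckb, brain-type creatine kinase, had 35.8, 43.9 and 52.5 CPM under hashtags 5 and 6 and 43.2, 59.5 and 94.0 CPM under hashtags 3 and 4. Its fold was 0.743 (0.630 to 0.876) and its adjusted p was 1.0 by edgeR.

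Among 16 gene lists, grouped by role, the type I interferon response had the median furthest from 0. Of its 37 members 36 were found among the genes shared by the pools, and these passed the filter on low counts. All 36 had log2 fold changes below 0, the lowest -1.28 for Ifit3b, with a median of -0.49. The median over all genes tested was 0.01, and 53.3% of them were above 0. The lists and their members were chosen with earlier results of these data known. Members of a list that respond together are not separate observations. None of the 36 passed the adjusted threshold. At an unadjusted p under 0.05 by edgeR 6 were lower (1.42% of all genes were) and 0 higher. Counting both directions, 14 members had such a p without pool 1, where 392 of 9702 genes did. Without pool 2 it was 10, where 235 of 9321 genes did. It was 0 without pool 3 (293 of 10182 genes) and 0 without the sum of pool 2 hashtag 3 (212 of 9973 genes).

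Isg15 had 659, 1139 and 3008 CPM under hashtags 5 and 6 and 638, 2450 and 3180 CPM under hashtags 3 and 4. Its highest samples were pool 1 hashtag 5 on one side and pool 2 hashtag 3 on the other, and the groups overlapped almost fully. Its log2 fold change was -0.67 ± 0.36 (SE; 95% interval -1.45 to 0.12), with an adjusted p of 1.0 by edgeR. Rsad2 had 144, 257 and 584 CPM under hashtags 5 and 6 and 124, 583 and 883 CPM under hashtags 3 and 4. Pool 2 hashtag 4 was the lowest sample of either side. Its log2 fold change was -1.08 ± 0.43, a fold of 0.474 (95% interval 0.249 to 0.900). Ifit3 had 132, 252 and 543 CPM under hashtags 5 and 6 and 115, 604 and 841 CPM under hashtags 3 and 4, with a log2 fold change of -1.07 ± 0.47. Ifit3 and Ifit3b are near-identical copies that can share reads, so the level of either is uncertain. Isg20, an exonuclease, had the smallest unadjusted p of the list by edgeR, 0.0256, with 65.7, 109 and 275 CPM under hashtags 5 and 6 and 64.9, 230 and 435 CPM under hashtags 3 and 4. Ifitm3, which blocks virus entry, had the highest level of the list, with medians of 4389 CPM under hashtags 5 and 6 and 6075 CPM under hashtags 3 and 4.

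The pools differed in how far the interferon genes lay from 0. The median member differed by -0.06 on the log2(CPM + 1) scale in pool 1, where 28 of 36 were below 0, by -0.31 in pool 2, where 36 were, and by -0.90 in pool 3, where 35 were. Without pool 3 the median log2 fold change was -0.30 and 35 of 36 were below 0. Without the sum of pool 2 hashtag 3, which had the highest summed level (24872 CPM), it was -0.24 and 33 were below 0. In monocyte-leaning cells alone it was -0.32 and in macrophage-leaning cells alone -0.14, with 35 and 26 of 36 below 0. With cells that carried markers of other types left out it was -0.47, and all 36 were below 0. With hashtags paired within pools as for Mmp13 it was -0.44, and 19 of 36 had an unadjusted p under 0.05 by edgeR, where 510 of all 9895 genes did, with 0 past the adjusted threshold.

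**Figure D3:**
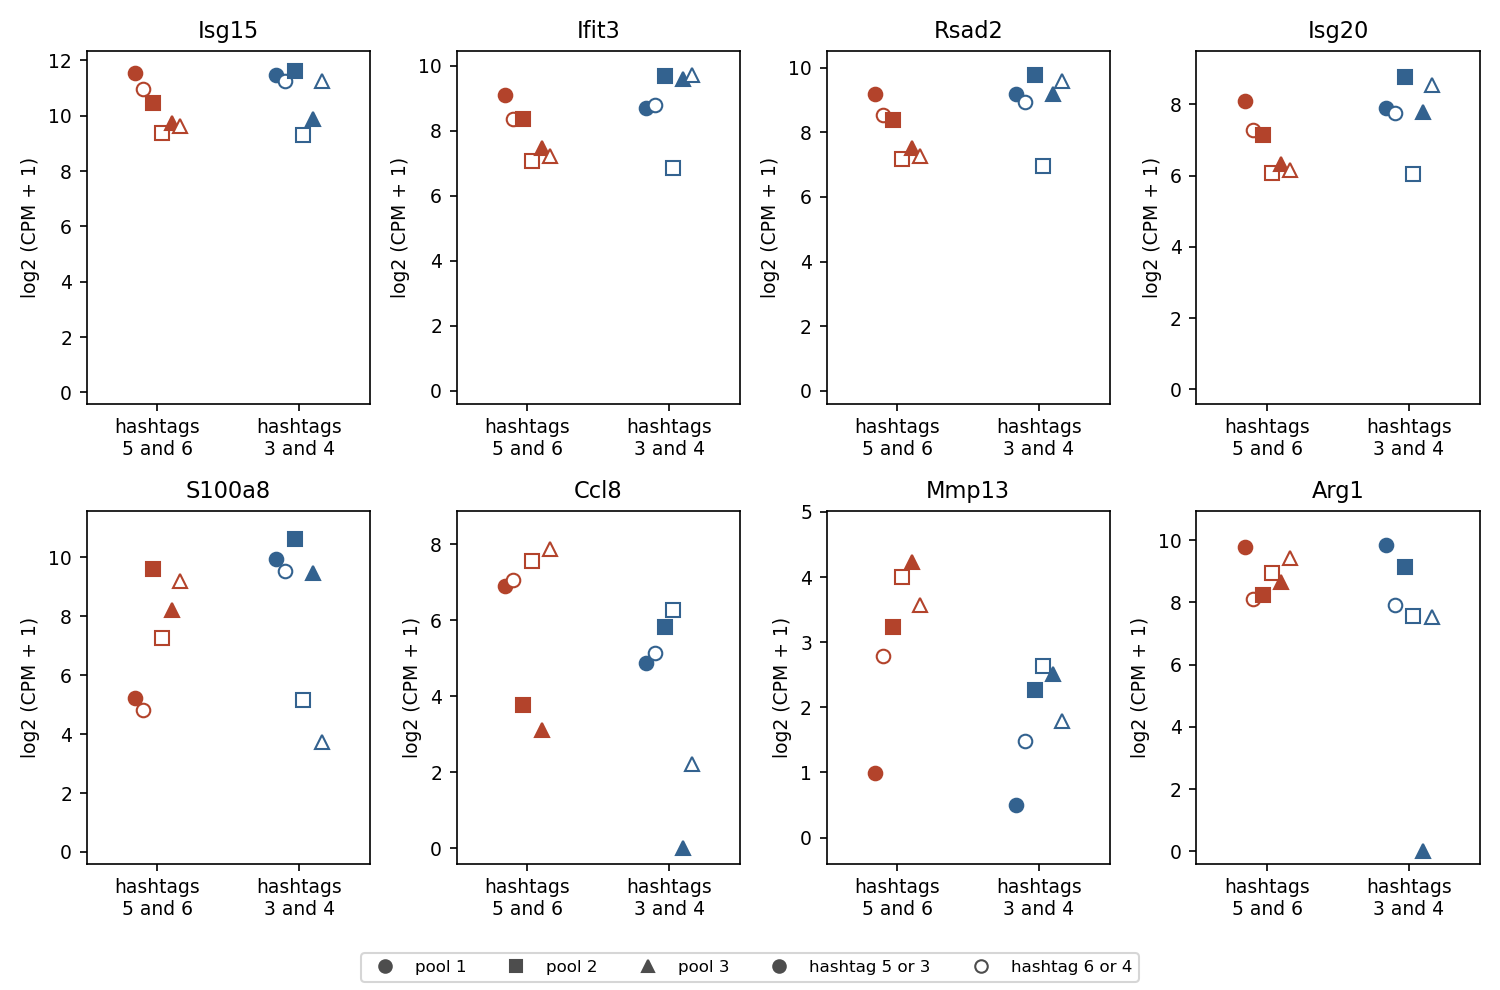
Levels of 8 genes as log2(CPM + 1) in the summed infiltrating cells of each hashed sample, for hashtags 5 and 6 (left) and hashtags 3 and 4 (right), with pools as shapes, hashtags 5 and 3 filled and hashtags 6 and 4 open. The sides overlap for every gene shown, S100a8 is lowest in pool 1 under hashtags 5 and 6 and in pools 2 and 3 under hashtag 4, and Ccl8 and Arg1 were at 0 in pool 3 hashtag 3.

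Genes that interferon gamma induces had a median near 0 over the 3 pools, and no test compared them with the type I list. Of 22 members 21 were tested, 15 of them above 0, with a median log2 fold change of 0.09. The median member differed by -0.40 in pool 1, 0.00 in pool 2 and 1.20 in pool 3, so the value over the pools averages opposite ones. Without pool 3 all 21 were below 0 and the median was -0.23, against -0.30 for the type I genes without pool 3. Cxcl10, a chemokine for T cells, had 789, 1358 and 1954 CPM under hashtags 5 and 6 and 973, 1935 and 2850 CPM under hashtags 3 and 4, a log2 fold change of -0.41 ± 0.21 (adjusted p of 1.0 by edgeR) that was below 0 in 3 of 3 pools. In macrophage-leaning cells alone it was 0.09, and 0.35 with hashtags paired as well, both with adjusted p of 1.0 by edgeR.

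Antigen presentation genes had medians near 0 over the 3 pools, which differed among themselves. The 9 tested class II genes of 10 had a median log2 fold change of 0.01. Cd74, the invariant chain that loads class II molecules, had 15020, 17527 and 24892 CPM under hashtags 5 and 6 and 9800, 17287 and 25213 CPM under hashtags 3 and 4. H2-Ab1, a class II chain, had medians of 8001 CPM under hashtags 5 and 6 and 7691 CPM under hashtags 3 and 4. The 18 class I and peptide processing genes had a median of 0.02, with pool medians of -0.10, -0.18 and 0.33 on the log2(CPM + 1) scale in pools 1, 2 and 3. Without pool 3 their median log2 fold change was -0.16, and 17 of 18 were below 0. B2m, the class I light chain, differed by 0.02 ± 0.11 on the log2 scale (95% interval -0.22 to 0.25).

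Monocyte and macrophage genes outside the gate had no member past the adjusted threshold. Of the 24 monocyte genes 17 were below 0, with a median log2 fold change of -0.12 and 1 lower at an unadjusted p under 0.05. Lyz2, lysozyme, had 7072, 11318 and 12384 CPM under hashtags 5 and 6 and 10088, 11691 and 12845 CPM under hashtags 3 and 4. Ifitm6, the 1 gene at an unadjusted p under 0.05 by edgeR, had a log2 fold change of -0.58 ± 0.25. Of 21 tested macrophage differentiation genes 12 were above 0, with a median of 0.09, and 4 were higher and 1 lower at an unadjusted p under 0.05, where 1.89% of all genes were higher and 1.42% lower. C1qb, a chain of complement C1q, had 1666, 2791 and 3332 CPM under hashtags 5 and 6 and 1258, 2016 and 3835 CPM under hashtags 3 and 4. Mrc1, the mannose receptor, had medians of 23.2 CPM under hashtags 5 and 6 and 16.8 CPM under hashtags 3 and 4 and was highest, at 69.0 CPM, in pool 2 hashtag 6.

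Lipid and hypoxia genes split by pool. The 23 tested lipid-associated genes had a median log2 fold change of 0.16, which was -0.25 without pool 1. Their pool medians on the log2(CPM + 1) scale were 0.25, -0.06 and -0.31 in pools 1, 2 and 3. Apoe, a lipid carrier, had 6537, 11160 and 18141 CPM under hashtags 5 and 6 and 5673, 8741 and 15980 CPM under hashtags 3 and 4. Spp1, osteopontin, and Gpnmb, a lysosomal membrane protein, differed by 1.65 and 1.64 on the log2(CPM + 1) scale in pool 1, by 0.92 and -0.11 in pool 2, and by -2.40 and -1.12 in pool 3. The 23 tested hypoxia and glycolysis genes had a median log2 fold change of 0.08 over all pools and -0.28 without pool 3. Their pool medians on the log2(CPM + 1) scale were -0.30, -0.26 and 1.08 in pools 1, 2 and 3. Gapdh, a glycolytic enzyme, had 1761, 2740 and 2996 CPM under hashtags 5 and 6 and 1189, 2446 and 4179 CPM under hashtags 3 and 4. Arg1, arginase, had 276, 447 and 869 CPM under hashtags 5 and 6 and 0, 214 and 922 CPM under hashtags 3 and 4.

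Chemokines and cytokines had the widest spread. Of 30 members 27 were tested, with a median log2 fold change of -0.15 and a range from -2.96 for Ccl24 to 1.75 for Ccl8. Ccl8, a ligand of monocyte chemokine receptors, had 7.62, 125 and 235 CPM under hashtags 5 and 6 and 0, 31.4 and 75.5 CPM under hashtags 3 and 4. It was high under hashtag 6 in 3 of 3 pools and under hashtag 5 only in pool 1. Its fold was 3.36 (95% interval 1.09 to 10.4), with an adjusted p of 1.0 by edgeR. In macrophage-leaning cells with hashtags paired within pools, added after seeing the data, its adjusted p was 8.25e-04, the 1 gene past the threshold in that setting. Ccl24, an eosinophil chemokine, had 2.79, 10.5 and 369 CPM under hashtags 5 and 6 and 0, 111 and 761 CPM under hashtags 3 and 4. Its interval on the log2 scale ran from -6.77 to 0.85. Il1b, an inflammatory cytokine, had medians of 3801 CPM under hashtags 5 and 6 and 3799 CPM under hashtags 3 and 4. Tgfb1, a regulatory cytokine, had 228, 300 and 317 CPM under hashtags 5 and 6 and 249, 426 and 570 CPM under hashtags 3 and 4, below 0 in 3 of 3 pools, with a log2 fold change of -0.51 ± 0.19 and an adjusted p of 1.0 by edgeR.

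The remaining lists had medians between -0.16 and 0.11, and no member of any passed the adjusted threshold. Of the 20 tested immune regulation genes 1 was lower at an unadjusted p under 0.05 by edgeR, where 1.42% of all genes were. That gene was Cd40, a costimulatory receptor, with 72.3, 115 and 124 CPM under hashtags 5 and 6 and 93.7, 138 and 157 CPM under hashtags 3 and 4. Tubb5, the tubulin with the highest level in the cell cycle list, had medians of 249.7 CPM under hashtags 5 and 6 and 221.8 CPM under hashtags 3 and 4, and the 21 tested cell cycle genes had a median of 0.09. The 21 immediate-early and heat shock genes, which respond to tissue dissociation, had a median of -0.12, and Junb, a transcription factor of that list, had medians of 2549 CPM under hashtags 5 and 6 and 2450 CPM under hashtags 3 and 4. Fth1, the ferritin heavy chain, had medians of 28919 CPM under hashtags 5 and 6 and 29038 CPM under hashtags 3 and 4. Those of Pycard, the inflammasome adaptor, were 376 CPM under hashtags 5 and 6 and 311 CPM under hashtags 3 and 4. Grn, progranulin, and Plaur, the urokinase receptor, had medians of 821 and 398 CPM under hashtags 5 and 6, against 774 and 421 CPM under hashtags 3 and 4.

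**Figure D4:**
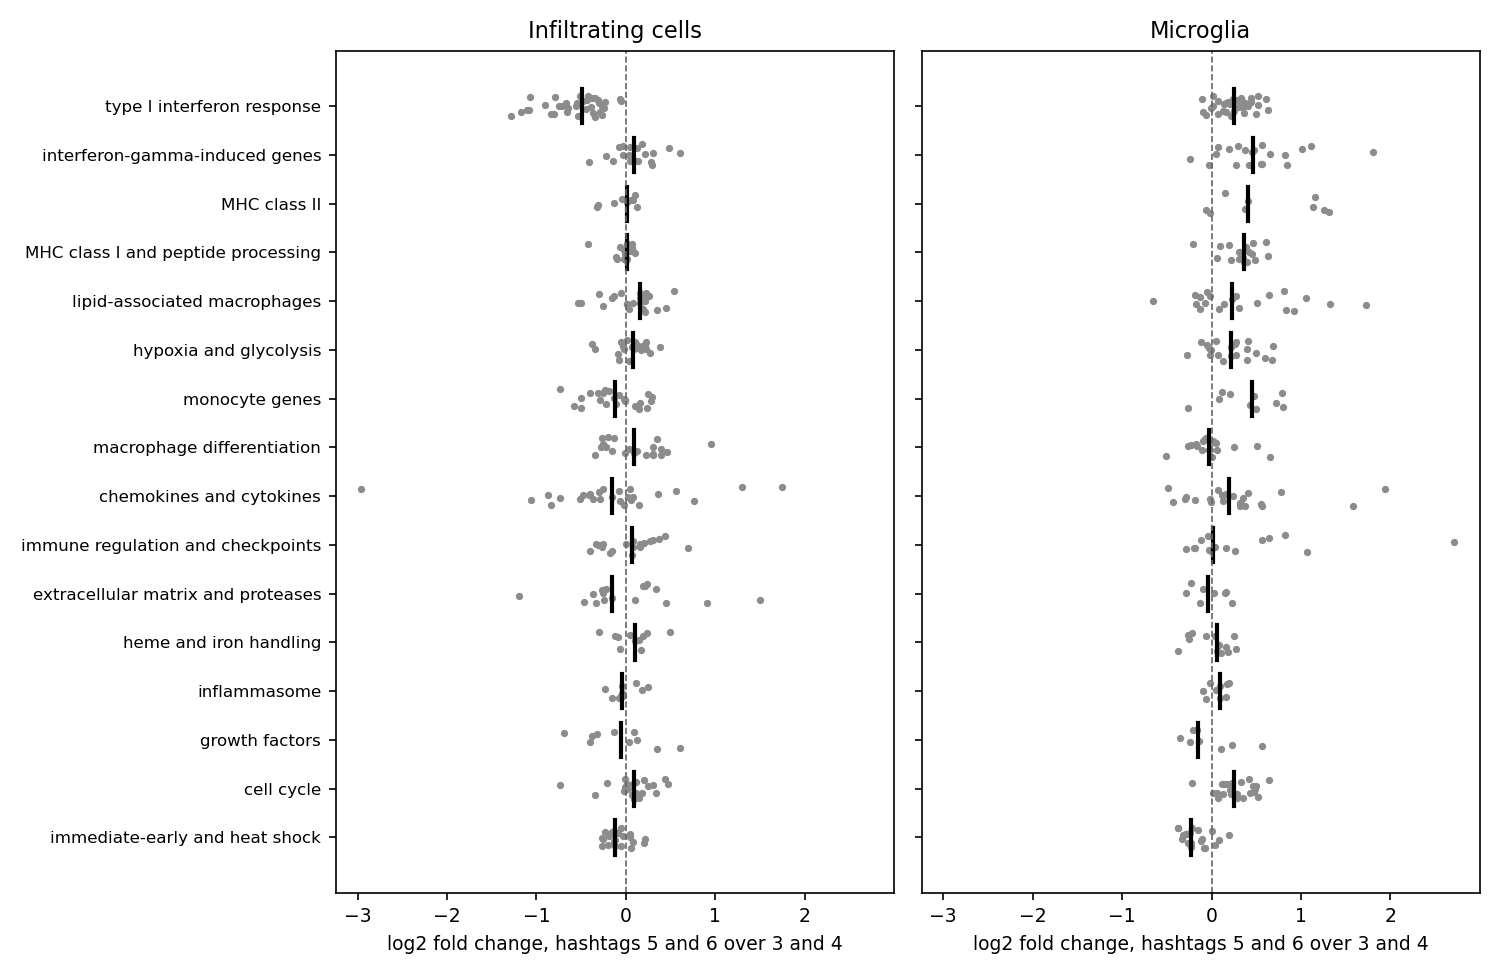
Log2 fold changes of hashtags 5 and 6 over 3 and 4 for the tested members of 16 gene lists (grey dots) with the median of each list (black bars), in infiltrating cells (left panel) and in microglia (right panel). The type I interferon genes lie below 0 in infiltrating cells, with a median of -0.49, and mostly above 0 in microglia, with a median of 0.25.

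Fits within single pools gave different genes. They rest on 2 samples a side and were added after seeing the data. Pool 1 alone gave 7 of 9855 genes past the adjusted threshold by edgeR (0.071%), pool 2 alone gave 0 of 10687 (0.0%, and 207 at an unadjusted p under 0.05), and pool 3 alone gave 143 of 6921 (2.07%). Of the pool 1 genes 6 were lower, S100a8, S100a9, Ngp, Camp, Lcn2 and Retnlg, granule and secreted proteins of neutrophils, and Ccl8 was higher. S100a8 had 36.7 and 27.0 CPM under hashtags 5 and 6 in pool 1, against 998 and 737 CPM under hashtags 3 and 4. In pool 2 it had 772 and 152 CPM under hashtags 5 and 6, against 1593 and 35.1 CPM under hashtags 3 and 4. In pool 3 it had 295 and 592 CPM under hashtags 5 and 6, against 714 and 12.3 CPM under hashtags 3 and 4. In pools 2 and 3 the sides therefore overlapped. Over all pools the S100a8 log2 fold change was -1.55 (adjusted p of 1.0 by edgeR). It was -0.26 without pool 1, and 0.36 with cells carrying markers of other types left out, a choice that itself uses S100a8 and S100a9. In pool 3 the genes past the threshold, 57 higher and 86 lower, included Ifit3 and Rsad2 among the lower and Nos2, inducible nitric oxide synthase, among the higher.

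Microglia of the same hashed samples gave a contrast of their own. By edgeR 0 of 9687 genes passed the adjusted threshold and 970 (10.0%) had an unadjusted p under 0.05. The type I interferon genes were above 0 in 31 of 35 tested, with a median log2 fold change of 0.25, and 7 were higher and 0 lower at an unadjusted p under 0.05, where 5.58% of all genes were higher. A median above 0 in microglia was not particular to this list. Medians were higher for the interferon-gamma-induced (0.46), monocyte (0.45), class II (0.41) and class I (0.36) lists. In that order 3 of 20, 3 of 10, 0 of 9 and 9 of 18 tested members were higher at an unadjusted p under 0.05 by edgeR. The remaining lists had lower medians, and that over all genes was -0.003. The difference between infiltrating cells and microglia was tested in 1 fit over 24 sums, with hashed sample as a block. No gene passed, with 0 of 10431 past the adjusted threshold by edgeR and 675 (6.47%) at an unadjusted p under 0.05. Of the 36 interferon genes 23 had an unadjusted p under 0.05 with the lower fold change in infiltrating cells, against 3.5% of all genes, and 0 the other way. These genes respond as a set in the same samples, so they are not separate observations. In pool 3 the microglia numbered only 57 and 33 cells under hashtags 5 and 6. The count of 23 was not taken again without single pools or sums. For Rsad2 the log2 fold change in infiltrating cells minus that in microglia was -1.18 ± 0.38, with an adjusted p of 0.658 by edgeR. For Ifitm3 it was -0.57 (adjusted p 0.642 by edgeR) and for Cxcl10 -1.37 (0.658). Of the 21 interferon-gamma-induced genes 8 were lower in the same sense and 0 higher.

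Surface proteins were read from antibody tags, whose counts took no part in choosing the cells. The gate did use transcripts of Ly6c2 and Tmem119, whose proteins the Ly6C and Tmem119 tags read. A tag's level is a centred log ratio: 1 was added to each count, natural logs were taken, and the cell's average over the 10 shared tags was subtracted. None of the 10 tags passed an exact two-sided permutation test within pools after Benjamini-Hochberg adjustment. The smallest p this design can give is 0.00926, so a lone tag could not reach an adjusted p under 0.05 over 10 tags. The CD74 tag had -2.79, -2.49 and -2.08 under hashtags 5 and 6 and -2.56, -1.98 and -1.54 under hashtags 3 and 4. In pools 1 and 2 both samples of hashtags 5 and 6 lay below both of hashtags 3 and 4, and in pool 3 they overlapped. The side means differed in the same direction in 3 of 3 pools, by -0.31, -0.48 and -0.49, and the mean difference of -0.43 had an exact permutation p of 0.0185 and an adjusted p of 0.185. Its counts were low, with sample medians of 16 to 46 per cell under hashtags 5 and 6 and 19 to 70.5 under hashtags 3 and 4. The RNA of Cd74 did not go with it, as its log2 fold change was 0.10 ± 0.17.

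The PD-L1 tag, an inhibitory ligand, had -0.06, 0.21 and 0.61 under hashtags 5 and 6 and -0.47, -0.10 and 0.47 under hashtags 3 and 4, a difference of 0.28 (exact permutation p 0.0741, adjusted 0.370). Most of it came from pool 3, where it was 0.73, against 0.09 and 0.03 in pools 1 and 2. Cd274, which codes for PD-L1, had medians of 198 CPM under hashtags 5 and 6 and 142 CPM under hashtags 3 and 4. The MHCII tag differed by 0.32 (exact permutation p 0.194) and was higher in 3 of 3 pools. The Ly6C tag had 1.99, 2.95 and 3.31 under hashtags 5 and 6 and 1.90, 3.01 and 3.76 under hashtags 3 and 4, and the samples of a side spread more widely than the sides differed. The CD11b, CD45, CD49d, Gr-1, CD52 and Tmem119 tags differed by -0.13 to 0.09, with exact permutation p of 0.454 to 0.796. Of their genes, Itgam, which codes for CD11b, had medians of 189 CPM under hashtags 5 and 6 and 159 CPM under hashtags 3 and 4. Ptprc (CD45), Itga4 (CD49d) and Cd52 had medians of 415, 101 and 2861 CPM under hashtags 5 and 6, against 450, 103 and 3105 CPM under hashtags 3 and 4. Ly6c1 stayed at or under 6.05 CPM in all 12 sums.

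**Figure D5:**
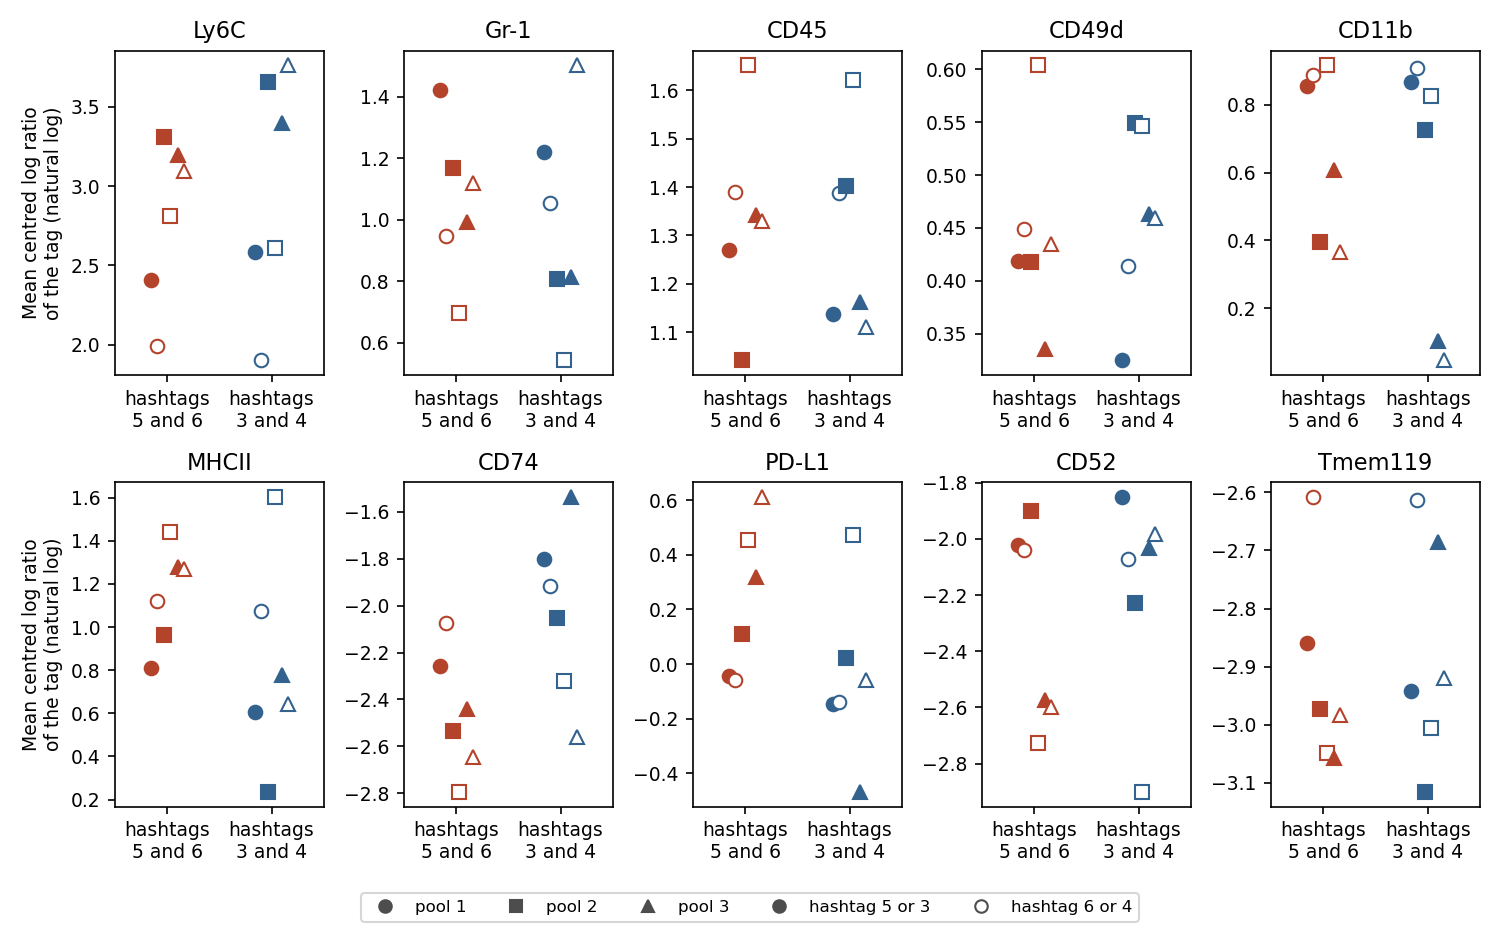
Mean centred log ratio (natural log) of 10 surface tags over the infiltrating cells of each hashed sample, for hashtags 5 and 6 (left in each panel) and hashtags 3 and 4 (right), with pools as shapes, hashtags 5 and 3 filled and hashtags 6 and 4 open. All 10 tags overlap between the sides, and the CD74 tag, with medians of -2.49 under hashtags 5 and 6 and -1.98 under hashtags 3 and 4, separates the sides within pools 1 and 2 but not in pool 3.

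Depth and quality of the cells did not set the sides apart beyond their spread. The median mitochondrial share was 0.667%, 1.31% and 1.64% under hashtags 5 and 6 and 0.725%, 1.04% and 1.57% under hashtags 3 and 4 (exact permutation p 0.25). Cells thinned to 3000 UMIs had medians of 1188 to 1322 genes under hashtags 5 and 6 and 1190 to 1286 under hashtags 3 and 4 (exact permutation p 0.120).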

How the data were processed

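RNA and antibody tags were measured in 3 pools, each with 1 mRNA and 1 tag library and 6 hashed samples. The deposited matrices hold UMI counts per gene or tag and barcode, with no normalization by the authors. Tools listed in the submitters' processing notes are bcl2fastq 2.20.0.422, Seurat 3 and Cell Ranger in versions 3.0.1 and 4.0.0, with the build mm10. Per the file headers, pool 1 was made with software version 3.1.0, whereas pools 2 and 3 carry 4.0.0.

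Barcodes had at least 500 UMIs, under 10% mitochondrial UMIs and at least 10 hashtag UMIs, 80% of them from 1 hashtag. Microglia had at least 3 UMIs of P2ry12, Tmem119, Siglech and Gpr34, at most 1 of Ms4a7, Ly6c2, Plac8 and Ccr2 and at most 1 of Nkg7, Flt3 and Ccr7. Genes were joined by identifier over the pools (30406), and the promoter windows by symbol. Sums per pool and hashtag were tested with edgeR 4.0.16 (TMM, filterByExpr, quasi-likelihood, pool as a block) on R 4.3.3, and p-values were adjusted by Benjamini-Hochberg over every gene in the fit. A pool is a library batch per the labels. Within a pool, each side's mean deviation from the average of that side was taken per gene. The deviations of the sides correlated over genes at 0.587, 0.379 and 0.0963 in pools 1, 2 and 3, so only weakly in pool 3. The standard error is the log2 fold change over the root of F. CPM values use TMM library sizes. Interferon and other lists, the members and the tests were chosen with earlier results of these data known. Named were the member of highest level of each list, the gate genes, the genes of the tags and Xist and Y-linked genes. The member of smallest p of a list and the genes said to be chosen after seeing values were added. Alternatives were DESeq2 1.42.0, other scalings, filters, gates and samples. The fits were tested on simulated data. The counts of 2 samples of a side differed beyond sampling noise in each pool, with chi-square per degree of freedom of 3.68 to 71.7. Hashtags 1 and 2 were not compared, as they marked 56 infiltrating cells.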

Additional observations from a re-analysis of the deposited data

Results flagged for a closer look

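Several values stood far from the other 5 samples of their side, which chance gives in about 1 in 20 groups, and 15 of the 166 groups looked at showed it. Under hashtags 5 and 6, pool 2 hashtag 6 was low in Gapdh (1761 CPM) and Pfkp (84.5 CPM), both genes of glycolysis, and high in Mrc1 (69.0 CPM) and Gpnmb (477 CPM). Pool 3 hashtag 6 was low in Lyz2 (7072 CPM) and Tgfb1 (228 CPM). Pool 1 hashtag 6 was high in Il1b (8069 CPM), pool 1 hashtag 5 in Ccl24 (369 CPM) and H2-T24, a class I gene (24.3 CPM), and pool 2 hashtag 5 in Plaur (616 CPM).

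Under hashtags 3 and 4, pool 3 hashtag 3, the sum of 23 cells, was high in Ckb (94.0 CPM) and Ccr7, a gene the gate used (9.40 CPM), and had the lowest share of infiltrating cells (6.78%) and the highest of microglia (76.1%). The CD52 tag of pool 2 hashtag 4 was low (-2.90).

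The remaining values come from data outside the comparison. The gate found 56 infiltrating cells under hashtags 1 and 2. The CCR2 tag, read in pools 2 and 3 alone, was 2.22 higher on the log2 scale in infiltrating cells than in microglia on average, and higher in 8 of 8 samples. Since the gate used Ccr2 transcripts, that is not a separate check of the label.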

How the results depend on the processing

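Settings that pair hashtags, restrict the fit to 1 pool or leave out 1 sum were added after seeing the data. The count of genes past the adjusted threshold in infiltrating cells was 0 in 31 of 35 other settings. Without a filter on low counts it was 126, of which 15 are absent from the filtered table, and the standard error of Ccl8 was then 0.15, against 0.75 with the filter. The cause was not tested. It was 7 within pool 1 and 143 within pool 3, on fewer samples, and 1 in macrophage-leaning cells with hashtags 5 and 3 and hashtags 6 and 4 paired. With no replicate block, that is without pool as a block, it was 0, with 170 genes at an unadjusted p under 0.05, and leaving out 1 pool at a time gave 0 to 0. The difference from microglia gave 0 genes in the other settings (0 with no replicate block, 0 to 0 without 1 pool) but 123 without the filter. The tags gave 0 in all 9 settings, where leaving out a pool allows no p under 0.0556. Over the 51 genes followed, none past the threshold, 115 of 1753 values changed sign, and the Gpnmb log2 fold change, 0.16 over all pools, was -1.21 within pool 3 and past the threshold there. Leaving out 1 sum moved the genes at an unadjusted p under 0.05 from 328 to between 162 (pool 2 hashtag 6) and 777 (pool 2 hashtag 4).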
